A study of Mus musculus with 28 samples.

Results

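The genes described here encode 4 MAP kinase phosphatases, Dusp1, Dusp6, Dusp8 and Dusp16, and Errfi1, an inhibitor of the EGF receptor. They were taken as every probe set whose only gene symbol in the array's annotation is one of these names, which gave 9 probe sets for 5 of 8251 genes, out of 12422 probe sets that are not controls and 10833 that carry 1 gene. Of the 9 probe sets, 7 passed the filter on low signals (at least 3 arrays in which the signal exceeds that array's median) and were tested among 7350. A second probe set of Dusp6 and a second one of Dusp16 were above their array's median in 0 of 28 arrays and are described by their levels alone. Over the 3 genotypes the probe sets of Errfi1 and Dusp6 that passed the test rose 1.71-fold and 1.55-fold in the whole brain 1 hour after a nicotine-induced seizure.

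Gene expression was measured on Affymetrix U74Av2 arrays, 1 per mouse, in total RNA of whole brain from 28 mice, each of which is a replicate. All mice carry the strain label C57BL/6J. Untreated mice were 6 wild-type animals (6 to 9 weeks old, 3 males and 3 females), 5 alpha7 +/T (6 to 8 weeks, 3 males and 2 females) and 5 beta4 null (6 to 9 weeks, 3 males and 2 females). Seized mice, taken 1 hour after a seizure that followed nicotine given into the peritoneum, were 3 wild-type (7 to 8 weeks, 1 male and 2 females), 5 alpha7 +/T (all 8 weeks, 2 males and 3 females) and 4 beta4 null (7 to 8 weeks, 3 males and 1 female). The alpha7 +/T animals are heterozygous for the L250T allele of the alpha7 subunit of the nicotinic acetylcholine receptor, and the beta4 null animals lack the beta4 subunit of that receptor. The nicotine dose differed by genotype so that seizure scores were alike, by amounts that the labels do not state, so genotype and dose cannot be told apart in seized mice. No group was injected without a seizure, and the seizure itself cannot be told apart from nicotine, injection and handling.

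These features of the samples bear on every value. On 9 arrays the log2 ratio of the 3 prime to the 5 prime Gapdh control signal lay between -0.48 and 0.096, and on the other 19 between 1.13 and 2.57. These low-ratio arrays come from 5 alpha7 +/T mice, 3 of them seized, and 4 beta4 null mice, 2 of them seized, and all wild-type arrays are high-ratio. The 8 mice aged 6 weeks are all untreated (3 wild-type, 4 alpha7 +/T, 1 beta4 null). Sample titles begin with LT or B4, which the labels do not explain: all alpha7 +/T mice are LT, all beta4 null mice are B4, and the wild-type mice are 3 LT and 3 B4 untreated and 1 LT and 2 B4 seized. The 3 untreated wild-type mice titled LT are those of 6 weeks, so age and title prefix cannot be told apart among untreated wild-type mice. Markers of neurons, astrocytes and oligodendrocytes fitted the label of whole brain: 8 of 10, 6 of 7 and 6 of 7 tested genes of these lists lay above the median of every array.

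MAP kinases are switched on by phosphorylation of a threonine and a tyrosine, and the dual-specificity phosphatases that carry a MAP kinase binding domain remove both phosphates. Several of these phosphatases, and the EGF receptor inhibitor encoded by Errfi1, are themselves transcribed in response to the signal that they end, which makes them feedback inhibitors. In brain, neuronal firing switches on the kinase ERK, and nuclear genes that answer within the hour include Fos, Egr1, Nr4a1 and some of these inhibitors.

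The promoters of the members are shown because the genes were compared for a sequence that transcription factors of the CREB family bind in activity-induced genes. The 250 bases before a transcription start were read from RefSeq (GRCm38.p6) and searched on both strands for the cyclic AMP response element TGACGTCA. The element occurs in windows of Dusp1, Dusp8 and Errfi1, once, 2 times and once, and in 1.55% of 32817 mouse promoter windows of this length. It is in capitals below, each window runs 5′ to 3′ on the gene's own strand, and no match says only that these letters are not in this window.
Dusp1, chr17:26508473-26508722, minus strand: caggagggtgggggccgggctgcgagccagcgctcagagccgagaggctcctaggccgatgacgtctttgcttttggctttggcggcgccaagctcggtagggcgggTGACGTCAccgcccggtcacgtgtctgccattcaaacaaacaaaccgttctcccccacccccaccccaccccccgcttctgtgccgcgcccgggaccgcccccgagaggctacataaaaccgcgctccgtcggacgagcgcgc
Dusp6, chr10:99262981-99263230, plus strand: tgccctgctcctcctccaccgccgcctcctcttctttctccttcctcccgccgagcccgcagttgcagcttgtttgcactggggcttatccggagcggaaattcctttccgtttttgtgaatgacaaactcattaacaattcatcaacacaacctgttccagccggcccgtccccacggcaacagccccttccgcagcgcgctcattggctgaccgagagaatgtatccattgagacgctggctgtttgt
Dusp8, chr7:142095285-142095534, minus strand: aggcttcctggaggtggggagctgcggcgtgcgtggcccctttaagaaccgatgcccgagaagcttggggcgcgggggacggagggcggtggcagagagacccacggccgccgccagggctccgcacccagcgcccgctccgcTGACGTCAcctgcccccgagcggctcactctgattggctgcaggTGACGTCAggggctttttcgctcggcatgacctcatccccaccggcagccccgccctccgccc
Errfi1, chr4:150854820-150855069, plus strand: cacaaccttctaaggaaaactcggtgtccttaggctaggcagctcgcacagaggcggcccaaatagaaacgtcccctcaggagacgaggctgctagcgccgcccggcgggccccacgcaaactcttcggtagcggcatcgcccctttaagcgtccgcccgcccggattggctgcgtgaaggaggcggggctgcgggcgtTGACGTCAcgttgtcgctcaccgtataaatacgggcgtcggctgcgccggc

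The first base of the element lies 143 bases before the start of Dusp1, 107 and 63 before that of Dusp8, and 51 before that of Errfi1. Errfi1 has a further annotated start upstream (window chr4:150853546-150853795), and neither that window nor the one of Dusp16 (chr6:134792629-134792878, minus strand) holds the element. The windows of Dusp8 and Dusp16 precede starts that lie inside the annotated genes (chr7:142079487-142095907 and chr6:134715468-134807063). The window of Dusp16 holds an EGR site (GCGNGGGCG), with its first base 138 before the start, which 4.7% of windows hold. The AP-1 site (TGANTCA, in 6.75% of windows), the ETS site (CCGGAAG, 6.9%) and the CArG box (1.47%) matched in none of these 6 windows. The GC box (GGGCGG, 32.7% of windows) matched in those of Dusp1, Dusp8, Dusp16 and the downstream start of Errfi1, and EGR sites and GC boxes can overlap. The element is in a window of Errfi1, 1 probe set of which rose, and in those of Dusp1 and Dusp8, which did not pass after seizure. It is not in the windows of Dusp6, which rose, and of Dusp16, which did not pass. A link between the element and the response to seizure was not tested.

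Over the average of the 3 genotypes, with equal weights, 2 of the 7 member probe sets tested passed an adjusted p under 0.05 (limma, Benjamini-Hochberg over all probe sets tested), against 0.408% of all probe sets. Both rose, one of Errfi1 and one of Dusp6. The members were chosen with earlier results of these data known, so their shares, here and below, are no separate result. In wild-type mice 0 of 7 passed (0.0544% of all, and 2 of 7 at an unadjusted p under 0.05), in alpha7 +/T mice 1 of 7 passed (2.8% of all) and in beta4 null mice 0 of 7 passed (0.0136% of all, and 3 of 7 unadjusted). In whole brain, fewer cells of a type and less RNA per cell cannot be told apart. A change limited to 1 region is averaged with all the others. How many of all probe sets part seized from untreated mice without overlap was not counted.

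**Figure D1:**
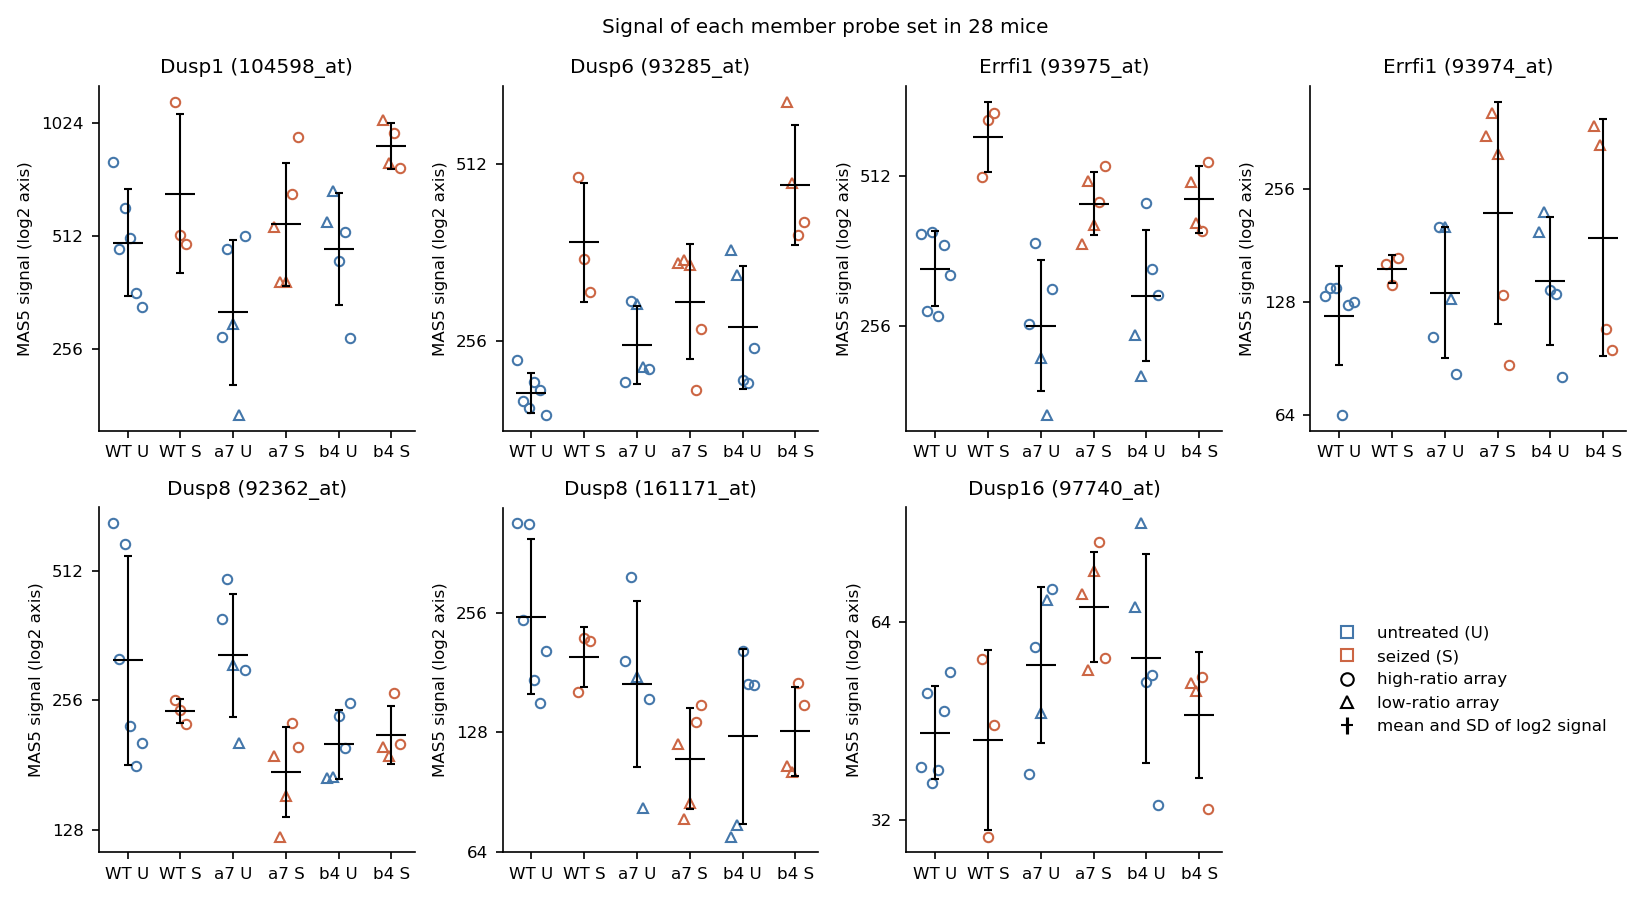
MAS5 signal (log2 axis) of the 7 member probe sets tested, 1 point per mouse in the 6 groups (WT wild-type, a7 alpha7 +/T, b4 beta4 null, U untreated, S seized); black bars give the mean and SD of log2 signal, and triangles mark low-ratio arrays. Seized and untreated wild-type mice do not overlap in Dusp6 or in either Errfi1 probe set. The share of all probe sets that part so was not counted. In the Errfi1 set 93974_at the high seized points are all triangles.

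Dusp1 encodes an inducible phosphatase of the nucleus that acts on p38, JNK and ERK. Its probe set (104598_at) read between 332 and 804.6 in untreated wild-type mice, with a median of 489. The 3 seized wild-type mice read 1166, 516.3 and 486.4, so 1 of them was high and the other two lay within the untreated range. Untreated alpha7 +/T mice read 276.4, 472.8, 299.1, 170.9 and 510.9. Seized alpha7 +/T mice read 540.3, 386.3, 386.9, 661.3 and 940.8. The ranges overlapped, with 3 seized mice above every untreated one. Untreated beta4 null mice read 556.5, 676.3, 439.6, 523.7 and 274.5, and seized ones 1040, 802.9, 960.3 and 777.6. Here every seized mouse lay above every untreated one, and the share of all probe sets that part so was not counted.

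The average difference of Dusp1 was 0.71 ± 0.19 (log2, SE; 1.63-fold, 95% interval 0.32 to 1.09), and 11 of 12 seized mice lay above the untreated mean of their genotype, yet it did not pass (adjusted p = 0.133, limma). It did not pass in 12 of 13 alternative settings, nor in 27 of 28 fits with 1 mouse left out. The setting that passed had the title prefix as a covariate, chosen after seeing the data (0.75, adjusted p = 0.0448, limma). The leave-out fit that passed was the one without untreated alpha7 +/T mouse 5 (0.76, adjusted p = 0.0446, limma). By genotype it was 0.44 ± 0.34 in wild-type mice, 0.78 ± 0.31 in alpha7 +/T mice and 0.91 ± 0.33 in beta4 null mice, and none of these passed (adjusted p = 1, 0.159 and 1, limma). The 3 genotypes' differences did not differ detectably (interaction, unadjusted p = 0.597, limma). Seized beta4 null mice had the highest group mean, at a log2 signal of 9.80 ± 0.20 (SD, n = 4), and untreated alpha7 +/T mice the lowest, at 8.33 ± 0.64 (n = 5). No groups next to each other in that order differed by more than the larger of their SDs.

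Dusp6 encodes a phosphatase of the cytoplasm that is selective for ERK. Its tested probe set (93285_at) read between 191 and 237.5 in untreated wild-type mice (median 206.4), and 487.9, 353.2 and 310 in the 3 seized ones. Untreated beta4 null mice read 365.1, 330.9, 219.1, 216.5 and 249.2, and seized ones 655.1, 476.5, 387.3 and 409. In both genotypes every seized mouse was above every untreated one, and the share of all probe sets that part so was not counted. Untreated alpha7 +/T mice read 217.3, 299.7, 295.6, 231 and 229.1, and seized ones 347.3, 351.2, 344.6, 210.7 and 267.6. Here 3 seized mice, those on low-ratio arrays, were above every untreated mouse and of the other two 1 lay within the untreated range and 1 just below it.

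Dusp6 rose by 0.63 ± 0.11 on average (log2, SE; 1.55-fold, 95% interval 0.41 to 0.86; adjusted p = 0.00205, limma), in 11 of 12 seized mice. The difference was 0.85 ± 0.20 in wild-type mice (1.80-fold; adjusted p = 0.215, limma), 0.81 ± 0.19 in beta4 null mice (1.75-fold; adjusted p = 0.309, limma) and 0.24 ± 0.18 in alpha7 +/T mice (1.18-fold; adjusted p = 0.497, limma). None passed alone in the main fit. In wild-type mice Dusp6 passed on high-ratio arrays alone (adjusted p = 0.0258, limma) and with array class as a covariate (adjusted p = 0.00606, limma). All wild-type arrays are high-ratio, so both fits hold the same wild-type mice and the same difference, 0.85. Only the estimate of the spread and the adjustment over all probe sets changed. In beta4 null mice Dusp6 passed with array class as a covariate (0.76, adjusted p = 0.0199, limma). With median centring it passed in beta4 null mice too (0.83, adjusted p = 0.0252, limma). The smaller value of alpha7 +/T mice differed from that of wild-type mice by -0.61 ± 0.27 (95% interval -1.15 to -0.062; adjusted p = 0.661, limma) and from that of beta4 null mice by -0.56 ± 0.26 (adjusted p = 0.453, limma). The test across the 3 genotypes had an unadjusted p of 0.0477 and an adjusted p of 0.652 (limma), and 0 of the 7 member probe sets passed it, against 0.0272% of all. Untreated wild-type mice had the lowest group mean, 7.71 ± 0.11 (SD, n = 6), below untreated alpha7 +/T mice (7.98 ± 0.22, n = 5) by more than either SD. The other neighbouring groups did not differ beyond their spread.

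The second probe set of Dusp6 (161536_r_at) read between 0.629 and 15.8 in all mice. It was at the weak end of every array and shows no level that could be set against the first.

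**Figure D2:**
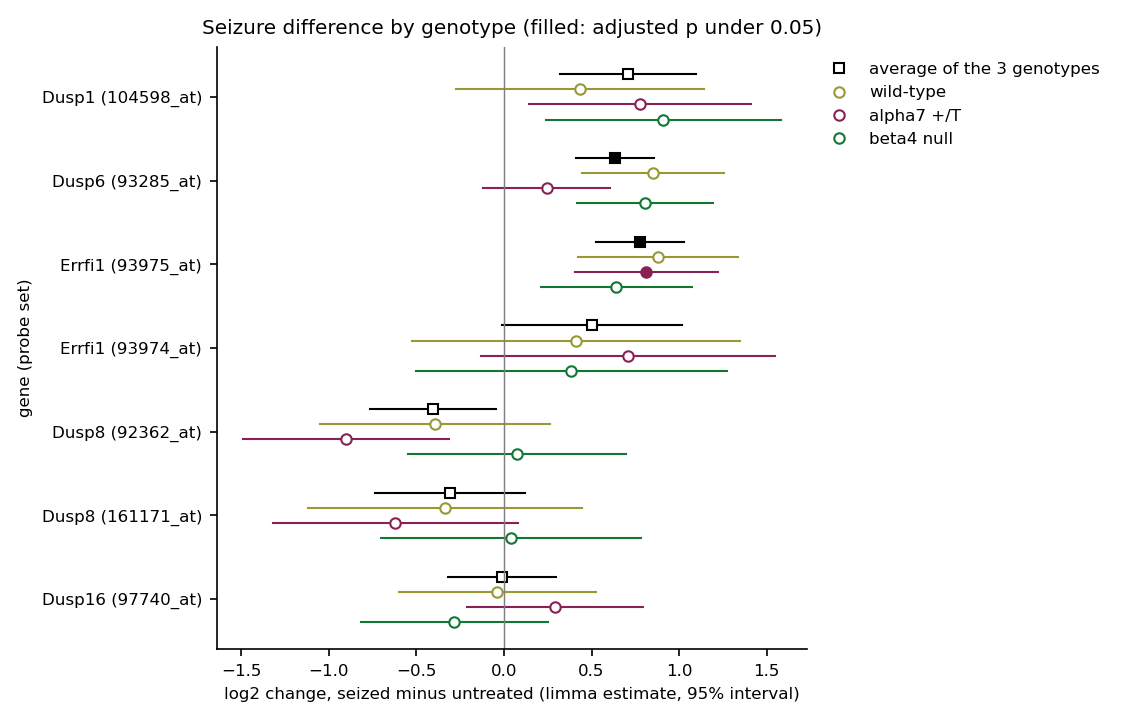
Log2 difference between seized and untreated mice with its 95% interval for each member probe set tested, averaged over the genotypes (squares) and within each (circles); filled symbols passed an adjusted p under 0.05. Errfi1 (93975_at) and Dusp6 passed over the average, at 0.78 and 0.63, and Dusp6 lies lower in alpha7 +/T mice, at 0.24, than in the others.

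Dusp8 and Dusp16 encode phosphatases that act mainly on JNK and p38. The brighter probe set of Dusp8 (92362_at) read 661.1, 319.7 and 590.8 in the 3 untreated wild-type mice of 6 weeks, all titled LT. It read 203.2, 179.8 and 223.1 in those of 7, 8 and 9 weeks, all titled B4. The 3 seized wild-type mice, of 7 to 8 weeks, read 256.8, 243.3 and 225.9, below all the young untreated mice and above all the older ones. Untreated alpha7 +/T mice read 396.2, 489.2, 310 and 203.3 at 6 weeks and 300.4 at 8 weeks, and seized ones, all of 8 weeks, 189.7, 123.3, 153.7, 227.2 and 198.9. All but 1 of the seized readings lay below the lowest untreated one. Beta4 null mice read 168.7, 170, 235.2, 198.1 and 252.2 untreated and 199.2, 189.5, 266.7 and 203.1 seized, and these ranges overlapped throughout.

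The difference of this probe set was -0.39 ± 0.32 in wild-type mice, -0.90 ± 0.29 in alpha7 +/T mice and 0.074 ± 0.30 in beta4 null mice (log2, SE; adjusted p = 1, 0.0767 and 1, limma), and its average was -0.41 ± 0.17 (adjusted p = 0.515, limma). Without the 3 wild-type mice of 6 weeks the wild-type value turned to 0.26 (adjusted p = 1, limma), and in mice titled B4 alone to 0.22 (adjusted p = 0.999, limma). In alpha7 +/T mice the value passed with array class as a covariate, at -0.81 (adjusted p = 0.037, limma). At an unchanged -0.90 it passed with the title prefix as a covariate (adjusted p = 0.0334, limma). The same held without the wild-type mice of 6 weeks (adjusted p = 0.014, limma). It did not pass with age as a covariate, at -0.55 (adjusted p = 0.606, limma). Nor did it on high-ratio arrays alone, at -0.87 (adjusted p = 0.293, limma), or in mice titled LT alone, at -0.90 (adjusted p = 0.154, limma). In mice of 7 weeks or older, with 1 untreated alpha7 +/T mouse, it was -0.78. The other 4 untreated alpha7 +/T mice were 6 weeks old and all seized ones 8 weeks, so age and treatment cannot be told apart there except through the untreated mouse of 8 weeks, which lay above every seized one. Fitted over all groups, the age coefficient was -0.22 ± 0.10 per week (log2; unadjusted p = 0.0376, adjusted p = 0.88, limma).

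**Figure D3:**
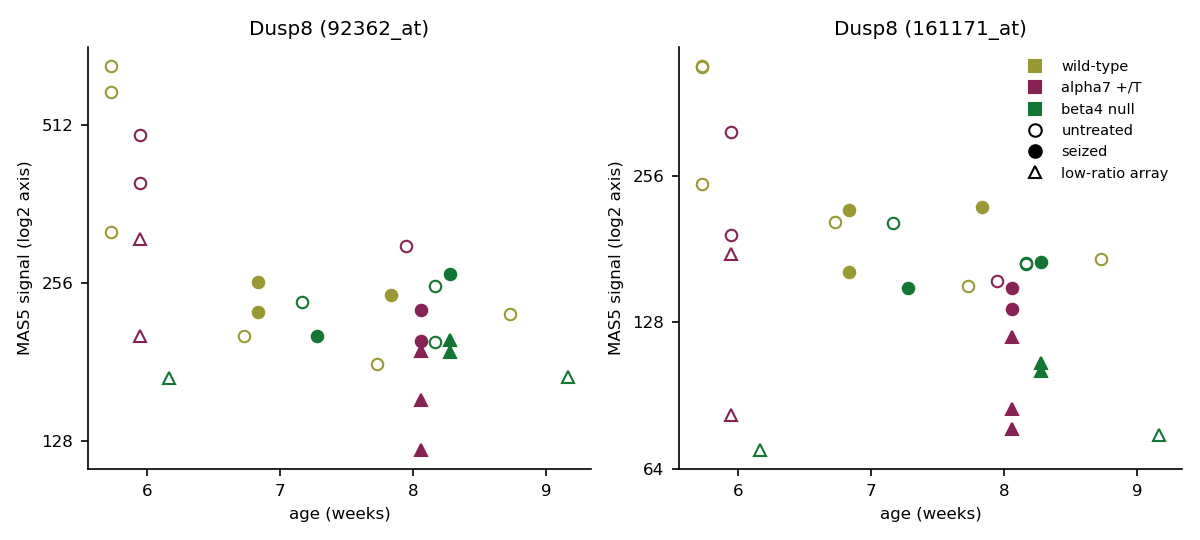
MAS5 signal (log2 axis) of the 2 Dusp8 probe sets against age in weeks, 1 point per mouse (colour, genotype; filled, seized; triangles, low-ratio arrays; points are moved sideways within a week to part the groups). The highest signals, 661.1 and 429.3, are both of an untreated wild-type mouse of 6 weeks, and no seized mouse was younger than 7 weeks.

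The other probe set of Dusp8 (161171_at) ranged from 70.0 to 429.3 over all mice. Its pattern followed the first (Pearson r = 0.84 and Spearman rho = 0.63 over 28 mice after the mean of each array class was subtracted). The young wild-type mice read 429.3, 245.9 and 427.7, and the older untreated ones between 152 and 205.5. Its average difference was -0.30 ± 0.21 (adjusted p = 0.729, limma), and in wild-type mice it turned from -0.34 to 0.18 (adjusted p = 1 in both fits, limma) without the mice of 6 weeks.

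The tested probe set of Dusp16 (97740_at) lay near the middle of the arrays, above its own array's median in 16 of 28. It read from 36.4 to 53.7 in untreated wild-type mice (median 42.7), and 56.2, 30.2 and 44.6 in seized ones. The untreated alpha7 +/T mice read 37.6 to 71.7 and the seized ones 54.1 to 84.5. In beta4 null mice the untreated range was 33.7 to 90.3 and the seized one 33.4 to 52.7. All 3 pairs of ranges overlapped, and the average difference was -0.010 ± 0.15 (95% interval -0.32 to 0.30; adjusted p = 0.993, limma). The second probe set (161181_f_at) read between 1.53 and 26.6 in all mice and was not tested.

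Errfi1 encodes a cytoplasmic adaptor that binds the kinase domain of the EGF receptor family and blocks it. Its brighter probe set (93975_at) read between 268.7 and 394.5 in untreated wild-type mice (median 348.7), and 508.8, 661.7 and 685.2 in seized ones. All seized wild-type mice lay above all untreated ones, and the share of all probe sets that part so was not counted. Untreated alpha7 +/T mice read 258.7, 376.1, 221.4, 169.6 and 304.4, and seized ones 373.7, 500.1, 408.4, 454.2 and 535.4. Only the lowest seized mouse fell below an untreated one. Untreated beta4 null mice read 246.1, 203.2, 451.8, 333.5 and 295.4, and seized ones 498.9, 411.8, 397 and 546.8. A single untreated mouse, at 451.8, reached into the seized range.

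This probe set rose by 0.78 ± 0.12 on average (log2, SE; 1.71-fold, 95% interval 0.53 to 1.03; adjusted p = 0.000615, limma), and all 12 of 12 seized mice lay above the untreated mean of their genotype. In alpha7 +/T mice it rose by 0.81 ± 0.20 (1.76-fold; adjusted p = 0.0242, limma), and this call was lost without untreated mouse 3 (0.76, adjusted p = 0.0715), untreated mouse 4 (0.66, adjusted p = 0.071) or seized mouse 5 (0.75, adjusted p = 0.0579, limma throughout). Under 6 alternatives (median centring, age as a covariate, high-ratio arrays alone, mice of 7 weeks or older, mice titled LT alone, and the compared groups alone) the call was also lost, with adjusted p-values between 0.0914 and 0.806 (limma). The value was 0.88 ± 0.22 in wild-type mice (1.84-fold) and 0.64 ± 0.21 in beta4 null mice (1.56-fold), neither of which passed (adjusted p = 0.361 and 1, limma). No difference between genotypes was detectable (interaction, unadjusted p = 0.721, limma). The 95% interval of alpha7 +/T minus wild-type ran from -0.68 to 0.54 and that of beta4 null minus wild-type from -0.87 to 0.39. The seized groups held the 3 highest means, from 9.26 ± 0.23 in wild-type (SD, n = 3) to 8.82 ± 0.21 in alpha7 +/T mice (n = 5). Wild-type seized mice stood above the next group, and seized alpha7 +/T mice above untreated wild-type mice (8.38 ± 0.25, n = 6), by more than the larger SD.

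In mice of 7 weeks or older, which leaves 1 untreated alpha7 +/T mouse, 0 of the 7 member probe sets passed over the average. Errfi1 (93975_at) was then 0.69 and Dusp6 0.72, both with an adjusted p of 0.0672 (limma), beside 10 probe sets in all that passed.

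The second probe set of Errfi1 (93974_at) read otherwise. In wild-type mice it read between 63.9 and 139.8 untreated (median 130.5) and 161.1, 141.8 and 168 seized, without overlap. The share of all probe sets without overlap was not counted. Seized alpha7 +/T mice read 354.7, 408.2 and 316.4 on low-ratio arrays and 133.6 and 87.0 on high-ratio ones. Seized beta4 null mice read 376.5 and 335 on low-ratio arrays and 108.6 and 95.2 on high-ratio ones. The untreated mice of these genotypes read 203.3, 130.3, 196.9 and 221.7 on low-ratio arrays and between 80.9 and 202.3 on high-ratio ones. Thus all high readings of seized mutants came from low-ratio arrays. The average difference was 0.50 ± 0.25 (adjusted p = 0.592, limma), with 8 of 12 seized mice above their untreated mean.

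Array class was therefore set beside each member. With a term for class added to the 6 groups, the coefficient (low-ratio minus high-ratio) of Errfi1 93974_at was 1.19 ± 0.19 (log2; adjusted p = 9.88e-06, limma) and that of Errfi1 93975_at had the opposite sign, -0.41 ± 0.12 (adjusted p = 0.00467, limma). It was 0.43 ± 0.10 for Dusp6, -0.85 ± 0.19 for Dusp8 161171_at and -0.45 ± 0.19 for Dusp8 92362_at, which all passed, and -0.27 ± 0.22 for Dusp1 and 0.27 ± 0.17 for Dusp16, which did not. So 5 of 7 member probe sets passed for class, against 52.1% of all. The 2 Errfi1 probe sets correlated at r = 0.15 over the 28 mice as deposited and at r = 0.65 (Spearman rho = 0.65) after the class means were subtracted.

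Among the 9 low-ratio arrays, seized over untreated mice averaged over alpha7 +/T and beta4 null, both Errfi1 probe sets rose, 93974_at by 0.95 ± 0.15 (1.93-fold; adjusted p = 0.0147, limma) and 93975_at by 1.08 ± 0.14 (2.11-fold; adjusted p = 0.00659, limma). Thus 2 of 7 member probe sets passed there, against 1.24% of all. The 5 seized mice on these arrays were all 8 weeks old. The untreated ones were 6 weeks old, except beta4 null mouse 2, of 9 weeks, so none shared the age of the seized mice. Dusp1 (0.76 ± 0.18) and Dusp6 (0.55 ± 0.13) had an adjusted p of 0.0735 and 0.0734 (limma). In alpha7 +/T mice alone on these arrays Dusp1 was also higher after seizure, by 0.94 ± 0.25 (adjusted p = 0.0369, limma), and 3 of 7 passed against 9.28% of all. These were 3 seized mice, all of 8 weeks, and 2 untreated mice, both of 6 weeks, so age and treatment cannot be told apart there.

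On the 10 high-ratio arrays of these genotypes 0 of 7 passed (4 of 7 at an unadjusted p under 0.05, limma), against 0.0272% of all, with 4 seized and 6 untreated mice. Dusp1 had 1.04 ± 0.21 (adjusted p = 0.274, limma), Errfi1 93975_at 0.53 ± 0.16 (adjusted p = 0.56, limma), Dusp6 0.38 ± 0.13 and Dusp8 92362_at -0.42 ± 0.16 (adjusted p = 0.623 for both, limma). Errfi1 93974_at had -0.16 ± 0.26. The seizure difference of 93974_at in low-ratio minus high-ratio arrays was 1.11 ± 0.32 (unadjusted p = 0.00246, adjusted p = 0.516, limma). That of 93975_at was 0.53 ± 0.22 (unadjusted p = 0.0234, adjusted p = 0.632, limma). For the other member probe sets the unadjusted p was 0.169 or more (limma), and 0% of all probe sets passed. Dusp6 in alpha7 +/T mice was 0.41 ± 0.18 on low-ratio arrays and -0.052 ± 0.19 on high-ratio ones. What sets the classes apart was not tested.

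**Figure D4:**
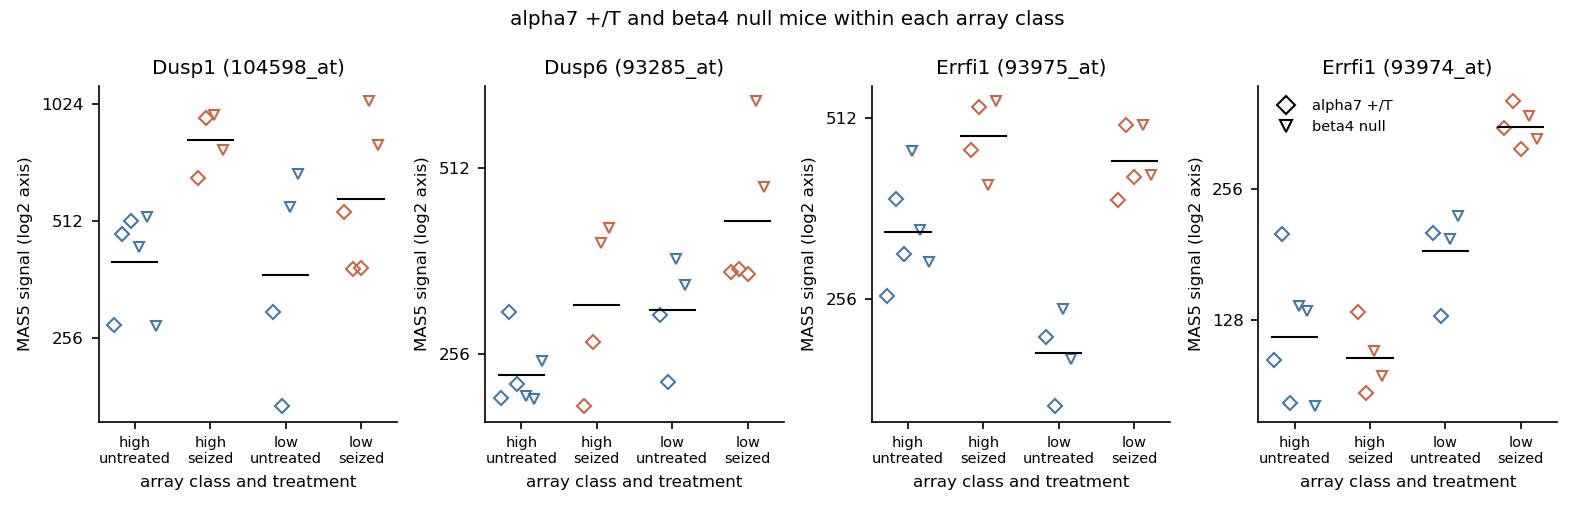
MAS5 signal (log2 axis) of Dusp1, Dusp6 and the 2 Errfi1 probe sets in the 19 alpha7 +/T (diamonds) and beta4 null (triangles) mice, parted by array class and treatment; lines are means of log2 signal. Errfi1 93975_at is higher in seized mice of both classes, and 93974_at is higher in those of the low-ratio class, at 316.4 to 408.2 against 130.3 to 221.7, and overlaps in the other.

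Among untreated mice, 0 of the 7 member probe sets differed between alpha7 +/T and wild-type mice, where 16% of all probe sets passed and 1 member had an unadjusted p under 0.05 (limma). That was Dusp1, at -0.61 ± 0.29 (adjusted p = 0.137, limma), which passed with median centring (-0.85, adjusted p = 0.0447, limma) and turned to 0.38 in mice of 7 weeks or older. Between untreated beta4 null and wild-type mice 0 of 7 passed (0.0136% of all), and 3 had an unadjusted p under 0.05. They were both Dusp8 probe sets, at -0.998 ± 0.33 (161171_at) and -0.65 ± 0.27 (92362_at), and Dusp6, at 0.37 ± 0.17. The low signals of Dusp8 161171_at in untreated beta4 null mice, 70.0 and 75.1, were those of the 2 low-ratio arrays, and the other 3 mice read 168.4 to 204.5. Its difference was -0.66 with array class as a covariate and -0.47 on high-ratio arrays alone. It was -0.88 with age as a covariate and -0.28 in mice of 7 weeks or older. It was -0.71 with the title prefix as a covariate and -0.49 in mice titled B4 alone. None of these passed (adjusted p from 0.411 to 0.991, limma). The difference of 92362_at was 0.0062 in mice titled B4 alone (adjusted p = 0.987, limma).

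Among seized mice, 0 of 7 passed between alpha7 +/T and wild-type (0% of all, 2 of 7 unadjusted) and 0 of 7 between beta4 null and wild-type (0.0136% of all, 0 of 7 unadjusted). The 2 with an unadjusted p under 0.05 were Dusp16, at 0.67 ± 0.28 (adjusted p = 0.405, limma), and Dusp8 161171_at, at -0.85 ± 0.39 (adjusted p = 0.41, limma). These comparisons share the wild-type mice with each other.

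The genes of the pathway were read from 7 lists, with 1 probe set per gene, and set against all 5599 genes tested, of which 0.482% passed over the average. In wild-type mice alone 0.0714% of genes passed, in alpha7 +/T mice 3% and in beta4 null mice 0.0179%. The median average difference over all genes was 0.0081 (log2). The lists were chosen with earlier results of these data known, so their shares are no separate result. Of 10 MAP kinase phosphatases with a MAP kinase binding domain 5 were tested, and 1 rose, Dusp6. The other phosphatases of that list were Dusp1, Dusp8, Dusp16 and Dusp2, a nuclear enzyme of immune cells, at -0.0076 ± 0.17 (unadjusted p = 0.965, limma). It was also the list's median.

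Of 19 other dual-specificity and MAP kinase directed phosphatases 8 were tested and 0 passed over the average (1 with an unadjusted p under 0.05, limma), with a median of -0.093. The smallest p-values were those of Dusp11, which acts on RNA, at -0.43 ± 0.14 (adjusted p = 0.329), of Ppp2ca, a catalytic subunit of protein phosphatase 2A, at -0.19 ± 0.14 (adjusted p = 0.768), and of Ptprr, a tyrosine phosphatase of neurons that acts on ERK, at 0.12 ± 0.13 (adjusted p = 0.864, limma throughout).

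Inhibitors of the EGF receptor and of Ras gave 7 tested genes of 18, and 1 rose, Errfi1, with a list median of 0.061. Rasa1, a GTPase-activating protein that turns Ras off, was 0.31 ± 0.12 on average (adjusted p = 0.473, limma). In alpha7 +/T mice it rose by 0.92 ± 0.20 (adjusted p = 0.0124, limma) and in untreated alpha7 +/T mice, which this comparison shares, it was lower than in wild-type mice by -0.67 (adjusted p = 0.026, limma). Pebp1, an inhibitor of Raf, was 0.12 ± 0.14 (adjusted p = 0.882, limma).

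Among genes upstream of the inhibitors none passed over the average. Of 14 ligands and receptors of the EGF family 3 were tested and 0 passed over the average (1 with an unadjusted p under 0.05, limma): the receptor Erbb3 at -0.36 ± 0.10 (adjusted p = 0.177), the ligands Hbegf at 0.087 ± 0.15 and Tgfa at 0.026 ± 0.11. The last was the list's median. Of 26 genes of the cascade from Ras to ERK 14 were tested and 0 passed (0 unadjusted, limma), with a median of -0.014. The smallest p-values were of Sos1, an exchange factor that loads Ras (0.23 ± 0.13), Mapk7, the kinase ERK5 (-0.63 ± 0.36), and Nras (-0.23 ± 0.16). Of 23 genes of the JNK and p38 cascades 15 were tested and 0 passed (0 unadjusted, limma), with a median of 0.024. The smallest p-values were of Mapk14, a p38 kinase (-0.14 ± 0.077), Mapk8, a JNK kinase (0.15 ± 0.085), and Map2k3, which activates p38 (0.16 ± 0.13).

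Transcription factors whose genes respond to ERK gave 17 tested of 29, and 7 rose over the average, with a list median of 0.39. This list too was chosen with earlier results of these data known. Fos, a subunit of AP-1, rose by 1.99 ± 0.22 (adjusted p = 5.19e-06, limma). Nr4a1, an orphan nuclear receptor, rose by 1.49 ± 0.15 (adjusted p = 1.18e-06, limma). Fosb (1.20), Atf3 (1.18), Egr2 (1.10), Junb (1.08) and Egr1 (0.61), each a DNA-binding regulator, also rose, with adjusted p-values from 1.51e-05 to 0.00503 (limma). The rises of Errfi1 and Dusp6 were thus near that of Egr1 and smaller than those of the other 6 factors. The differences between these genes were not tested.

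**Figure D5:**
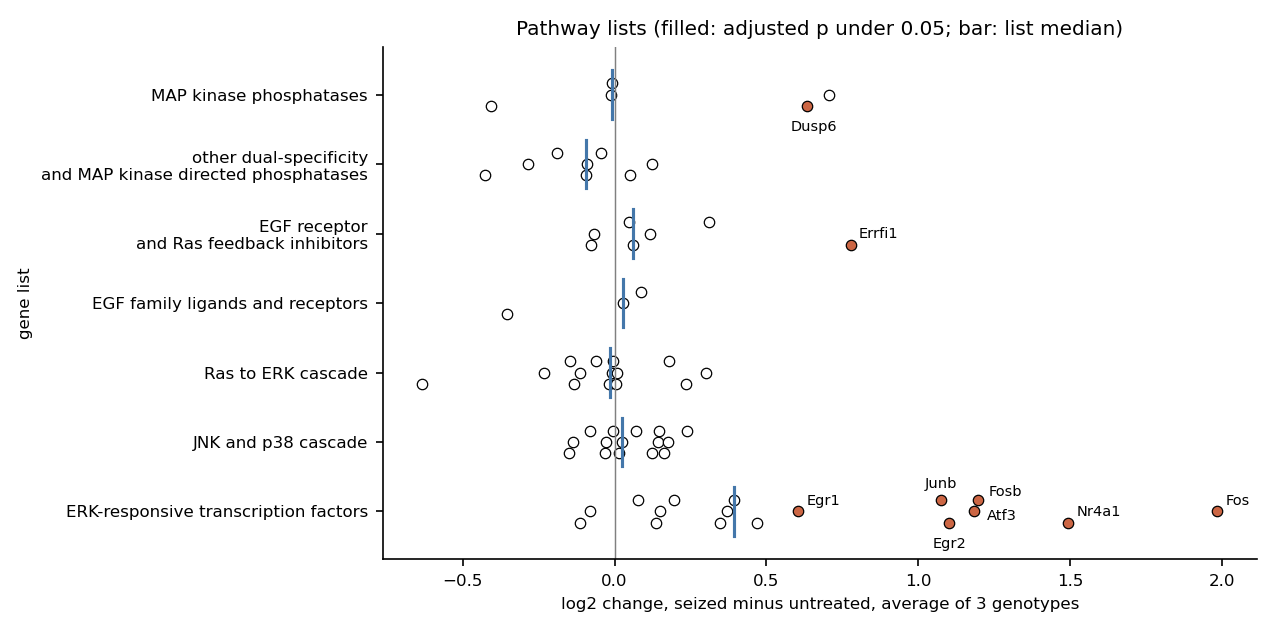
Average log2 difference between seized and untreated mice for each tested gene of 7 pathway lists; filled and named points passed an adjusted p under 0.05, and the blue bar is the list's median. The named points are Dusp6, Errfi1 and 7 of the 17 transcription factors tested, and none is a kinase of the ERK, JNK or p38 cascades.

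Between untreated alpha7 +/T and wild-type mice 16.7% of all genes tested passed, and with so few genes tested the counts of the lists are not set apart from that share. Of the 5 and 8 genes tested in the phosphatase lists 0 passed (1 and 2 with an unadjusted p under 0.05, limma). Of the inhibitors of the EGF receptor and of Ras 3 of 7 passed: Rasa1 and Spred2, a suppressor of Ras signalling, were lower and Ptpn1, a tyrosine phosphatase of receptors, was higher. Of the EGF family 1 of 3 passed (Erbb3, lower), of the cascade from Ras to ERK 2 of 14 (Grb2 higher, Sos2 lower), of the JNK and p38 cascades 2 of 15 (Mapk8ip1 higher, Map3k1 lower) and of the transcription factors 2 of 17 (Fos and Jund, lower). The calls over all probe sets in this comparison went from 1177 to 3 on high-ratio arrays alone, to 102 with the title prefix as a covariate and to 0 in mice titled LT alone (1356 with an unadjusted p under 0.05, limma). They were 669 with array class and 561 with age as a covariate, 512 without the wild-type mice of 6 weeks and 538 in the compared groups alone. With the changes of normalization, filter, signal floor and eBayes trend, and with sex as a covariate, they ran from 900 to 1439.

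Markers of other cell types were read beside these values. Of all genes tested, 0.482% passed over the average, 3% in alpha7 +/T mice after seizure and 16.7% between untreated alpha7 +/T and wild-type mice. Over the average 0 of 10 neuron, 0 of 7 astrocyte, 0 of 7 oligodendrocyte, 0 of 7 microglia and 0 of 2 blood markers passed (2, 1, 0, 0 and 0 with an unadjusted p under 0.05, limma), and 2 of 10 endothelial and pericyte markers fell, Eng by 0.57 and Sox18 by 0.57 (adjusted p = 0.0278 and 0.00486, limma). The summed signal of the 10 endothelial and pericyte markers ran from 1065 to 2125 (median 1460) in untreated mice and from 961 to 1405 (median 1131) in seized mice, and 4 of the 10 lay above the median of every array. In alpha7 +/T mice Sox18, Eng and Cldn5 fell by 1.12, 0.90 and 1.26, and Rgs5, a pericyte marker, rose by 1.43, as did 1 of 10 neuron markers, Gad1, by 0.40 (adjusted p from 0.000601 to 0.0236, limma). The sum of the 10 neuron markers ran from 10330 to 14920 in untreated and from 11660 to 15720 in seized mice. Between untreated alpha7 +/T and wild-type mice 1 of 10 neuron (Syp, 1.14), 1 of 7 oligodendrocyte (Mag, 1.53), 1 of 7 microglia (C1qc, 0.90) and 1 of 10 endothelial and pericyte markers (Sox18, 0.56) were higher and 1 of 7 astrocyte markers was lower (Gja1, -0.58; adjusted p from 0.02 to 0.0465, limma). The marker counts between untreated mice are not set apart from the share of all genes. The part of these markers in the members' changes was not tested.

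The genes most like each member over the 28 mice were found after the mean of each array class was subtracted, so shared class does not enter, and shared treatment, genotype and age do. Dusp1 was most like Nr4a1 (Pearson r = 0.83), Fos (0.83) and Bach1 (0.74), and Dusp6 most like Nr4a1 (0.82), Plk2 (0.77) and Egr1 (0.77). Errfi1 (93975_at) was most like Sgk1 (0.87), Nfkbia (0.86) and Fos (0.83). Dusp8 (92362_at) had another set, Ntsr2 (0.92), Sfpq (0.91) and Imp3 (0.90), and Dusp16 reached 0.66 with Timeless, 0.63 with Gcdh and 0.63 with Tbl1xr1. Of the genes most like Dusp1, Dusp6 and Errfi1, Nr4a1, Fos, Egr1 and Sgk1 passed the test over the average, and Bach1, Plk2 and Nfkbia did not, while none of the 6 most like Dusp8 and Dusp16 did. The seizure difference is part of these correlations, so the calls of the like genes are no separate result.

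The members were correlated among themselves over the same values, which also hold the seizure difference. Dusp1 and Dusp6 correlated at r = 0.71, Dusp6 and Errfi1 (93975_at) at 0.65, and Dusp1 and Errfi1 (93975_at) at 0.52. In the values as deposited these were 0.54, 0.37 and 0.53. The other Errfi1 probe set (93974_at) correlated with Dusp1 at 0.33 and with Dusp6 at 0.37 after the class means were subtracted. On the same scale Dusp8 (92362_at) correlated with Dusp1, Dusp6 and Errfi1 (93975_at) between -0.28 and -0.0077, and Dusp16 between -0.21 and 0.12.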

How the data were processed

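Whole-brain RNA of 28 mice was hybridised to 1 Affymetrix array each. The deposited values are linear signal intensities, which the authors computed with MAS5, as the submitters' processing notes state (its version is not given there). Each array's mean without the lowest and highest 2% was 150, and array medians ran from 43.6 to 61.1. The number of arrays limits the precision. The values were used as deposited, as log2.

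Of 12488 probe sets, 66 controls were left out, and 7350 with a signal over the array's median on 3 or more arrays were kept. The test was limma 3.58.1 in R 4.3.3 (lmFit, then eBayes with trend), fitted to the 6 group means with all 28 arrays. P-values were two-sided, adjusted by Benjamini-Hochberg over all probe sets kept and held to 0.05. The fit was tested on simulated data. Lists use a gene's brightest probe set and are described by counts and medians.

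The members and lists were chosen with earlier results of these data known. Named are all member probe sets, in each list the genes that passed and otherwise up to 3 with the smallest average p, and for each member the 3 genes with the highest Pearson correlation. Array class was a Gapdh log2 ratio below 0.5. Alternatives were quantile normalization, median centring, no filter, a stricter filter (14 arrays), a signal floor of 11.6 (the 25th percentile of all signals), no trend in eBayes, covariates, array and age subsets, fits of the compared groups alone and each mouse left out in turn. Chosen after seeing the data were the fits with the title prefix as a covariate or of 1 prefix alone, the fits without the wild-type mice of 6 weeks, the mean of both mutants within each array class and the difference between classes.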

Additional observations from a re-analysis of the deposited data

Results flagged for a closer look

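In each of 35 sets of a probe set and a group of 4 to 6 mice, the most extreme mouse was compared with its neighbour, a rule by which chance alone marks about 1 group in 20. It marked 2 readings. Dusp16 (97740_at) read 33.35 in seized beta4 null mouse 4, with the next mouse of the group at 50.33. Errfi1 (93974_at) read 63.9 in untreated wild-type mouse 4, the animal of 9 weeks, with the next at 125.6.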

How the results depend on the processing

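Alternative settings, and each mouse left out in turn, were run for the 7 tested member probe sets in each seizure and genotype comparison and for the number that passed the interaction. The differences of seizure effects between genotypes and the 2 probe sets not kept had none. The 2 members called over the average fell to 0 in mice of 7 weeks or older and stayed between 2 and 3 when 1 mouse was left out. In wild-type mice the count went from 0 to 1 with array class as a covariate and to 1 on high-ratio arrays alone. Both fits hold the same wild-type arrays, so the wild-type differences themselves were unchanged. In beta4 null mice it went from 0 to 1 with median centring and to 1 with array class as a covariate. In alpha7 +/T mice it went from 1 to 0 with median centring, with age as a covariate, on high-ratio arrays alone, in mice of 7 weeks or older, in mice titled LT alone and in a fit of the compared groups alone. It went to 2 with array class and to 2 with the title prefix as a covariate, to 3 on low-ratio arrays alone and to 2 without the wild-type mice of 6 weeks, and lay between 0 and 1 when 1 mouse was left out. Between untreated alpha7 +/T and wild-type mice the count went from 0 to 1 with median centring. Over all probe sets the calls of the average ran from 10 to 51 against 30, and those of alpha7 +/T mice from 4 to 978 against 206.

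None of the differences that changed sign had passed the test, and the cause was not tested. After seizure, on high-ratio arrays alone, Dusp16 turned to 0.068 on average, Dusp6 to -0.052 and Errfi1 93974_at to -0.15 in alpha7 +/T mice, and Dusp8 161171_at to -0.17 and Errfi1 93974_at to -0.17 in beta4 null mice. In mice of 7 weeks or older, Dusp8 161171_at turned to 0.18 and 92362_at to 0.26 in wild-type mice (0.18 and 0.26 without the wild-type mice of 6 weeks too), Dusp16 to -0.090 in alpha7 +/T mice and Dusp8 161171_at to -0.17 in beta4 null mice.

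Between untreated alpha7 +/T and wild-type mice, median centring turned Dusp8 92362_at to -0.20 and Errfi1 93974_at to -0.035, age as a covariate Dusp8 92362_at to -0.093, array class Errfi1 93974_at to -0.27, and the age limit Dusp1 to 0.38 and Errfi1 93974_at to -0.29. Between untreated beta4 null and wild-type mice, array class turned Dusp1 to 0.053 and Errfi1 93974_at to -0.17, high-ratio arrays Errfi1 93974_at to -0.042 and 93975_at to 0.087, the age limit Dusp1 to 0.21 and Dusp8 92362_at to 0.071, and leaving out the young wild-type mice Dusp1 to 0.27 and Dusp8 92362_at to 0.0062. Between seized alpha7 +/T and wild-type mice, high-ratio arrays turned Dusp1 to 0.25 and Errfi1 93974_at to -0.54, and array class Errfi1 93974_at to -0.21. Between seized beta4 null and wild-type mice, array class turned Dusp8 92362_at to 0.043, Dusp16 to -0.0059 and Errfi1 93974_at to -0.31, and high-ratio arrays Dusp16 to -0.013 and Errfi1 93974_at to -0.62.

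With 1 mouse left out, Dusp16 ran from -0.079 to 0.071 on average and from -0.24 to 0.20 in wild-type mice, and in beta4 null mice Dusp8 161171_at ran from -0.17 to 0.22 and 92362_at from -0.035 to 0.15. Untreated, Dusp8 92362_at ran from -0.13 to 0.25 in alpha7 +/T against wild-type and Dusp1 from -0.18 to 0.14 in beta4 null against wild-type mice. Seized, Dusp1 ran from -0.50 to 0.13 in alpha7 +/T against wild-type, and in beta4 null against wild-type Dusp16 ran from -0.11 to 0.33 and Errfi1 93974_at from -0.050 to 0.61. No paired analysis was possible because the labels give the mice no numbers that groups share. The title prefix, LT or B4, which groups do share, was fitted as a covariate and by its own mice alone, both chosen after seeing the data. LT mice include 1 seized wild-type mouse, which is assumed to vary like the other groups. After seizure in wild-type mice, B4 mice alone turned Dusp8 161171_at to 0.32 and 92362_at to 0.22, and LT mice alone Dusp16 to 0.45. Between untreated alpha7 +/T and wild-type mice Dusp8 92362_at turned to -0.44 with the covariate and to -0.62 in LT mice alone, and Errfi1 93974_at to -0.019 in LT mice alone. Between untreated beta4 null and wild-type mice Dusp1 turned to 0.36 with the covariate and to 0.27 in B4 mice alone, and Dusp8 92362_at to 0.0062 in B4 mice alone. Between seized beta4 null and wild-type mice Dusp8 92362_at turned to 0.13 with the covariate.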
